A study of Mus musculus with 13 samples.

Results

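The genes described here are 40 core autophagy genes, chosen by symbol from the 15213 genes of the deposited expression table, and each of the 40 was listed. They comprise the ULK initiation complex, the class III PI3-kinase complex, the membrane and lipid carriers of the ATG9, ATG2 and WIPI families, the ubiquitin-like conjugation machinery with its ATG4 proteases, the LC3 and GABARAP family, the receptors that carry cargo, and the transcription factors Tfeb and Tfe3. Autophagy encloses cytoplasm, organelles or protein aggregates in a double membrane, the autophagosome, which then fuses with a lysosome for degradation of its content. The ULK kinase starts the process, the class III PI3-kinase marks the membrane with a lipid, ATG9 vesicles and ATG2 supply further membrane, and a conjugation cascade attaches LC3 and GABARAP proteins to it so that receptors can dock. In the mammary gland, autophagy is known for the clearing of cells and organelles when the gland regresses after lactation, and it also supplies nutrients to tumor cells under starvation. TSG101, the protein that is overexpressed in these mice, belongs to ESCRT-I, a complex that sorts membrane proteins at endosomes and whose partner complexes help to close the autophagosome.

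RNA from 10 mammary tumors, taken from 6 females that carry the MMTV-tTA and TetO-Tsg101 transgenes, was compared with RNA from the mammary glands of 3 FVB females of wild type. The MMTV promoter drives the tetracycline transactivator in mammary epithelium, and this factor turns on HA-tagged mouse TSG101 together with a luciferase reporter in the absence of doxycycline. The transgenic females came from a single TetO-Tsg101 line, the glands carried neither transgene, and the labels give neither the age nor the reproductive state of an animal. Of the 6 mice with tumors, 3 gave 1 tumor each, 2 gave 2 and 1 gave 3 (tumors 8, 9 and 10). The value of a gene in a library is its count of reads divided by the scaled size of that library (normalized cpm). Whole tissue was sequenced, so that fewer cells of a type and less RNA per cell cannot be told apart.

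Reads assigned to the listed genes, taken here as depth, ran from 6176269 to 16835397 per tumor and from 11672487 to 23889042 per gland. Tsg101 itself, taken as a check of the labels, ran from 49.9 to 101 normalized cpm over the tumors, with glands at 45.6, 53.0 and 61.0. Its log2 fold change of 0.30 did not pass the test (adjusted p = 0.296, limma), and 6 of 10 tumors lay above all glands. The gene alone therefore does not bear out the labels. The ribosomal precursor Rn45s took 27.4% of the assigned reads in tumor 9, 9.32% in tumor 6 and 4.35% in gland 3. In any other library it took at most 4.07%. The 2 tissues also differed in makeup, which summed marker levels (normalized cpm) show. Because the filter on low values weighs the more numerous tumors most, marker counts are those of limma without it, at a false discovery rate below 0.05. Of the squamous markers, 10 of 10 were higher in the tumors, with sums between 1136 and 5171 against 195 to 355 in the glands, where Sprr1b, Ivl and Dsg3 were at 0 in every gland. All 6 milk protein genes were lower, with sums between 1309 and 49195 against 117395 to 175636. Lower as well were the 8 endothelial markers (sums of 58.2 to 128 against 273 to 631), 10 of 10 adipocyte markers (42.3 to 441 against 3714 to 11237), 4 of 8 fibroblast markers (420 to 1170 against 3943 to 4494) and 8 of 10 lymphocyte markers (18.8 to 128 against 663, 29.4 and 659). Of 7 neutrophil markers, 4 were higher (sums of 306 to 3952 against 3.98 to 51.1), whereas Cxcr2, Retnlg and Mmp8 did not pass. Of 10 macrophage markers, 7 were higher (428 to 829 against 339 to 374). Epithelial markers, 3 of 10 of them higher, summed to between 1963 and 2878 in the tumors and to 1986, 2860 and 1282 in the glands. Of 7 skeletal muscle markers, 0 passed, and their sum was 2039 in tumor 4 and 340 in tumor 10. How far this shift in cell types takes part in any result below was not tested.

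Of the 40 autophagy genes, 2 were higher and 3 were lower in the tumors at a false discovery rate (FDR) below 0.05. Atg9b, a paralog of the membrane scramblase Atg9a, was 31.1-fold higher, and Map1lc3a, which encodes an LC3 protein, was 3.00-fold higher. Ulk2, Uvrag and Atg4c were lower, by between 1.56-fold and 1.78-fold. All 40 genes passed the filter on low values, Atg9b through the tumors alone, since its gland values lay under the limit of 5, so that it had to differ to pass. Against these counts, 14.8% of the 11795 genes tested were higher and 13% were lower at the same threshold. Without the filter, which leaves out genes that are low in most tumors even where the glands are high, these shares were 15.3% and 16.0%, and the members' counts were again 2 and 3. With a change of more than 2-fold required in addition, 2 members were higher and 0 were lower, where 10.2% of all genes were higher and 6.99% were lower. The count of 0 came from limma, and edgeR and DESeq2 on the recovered reads gave 0 as well. At an unadjusted p below 0.05 there were 7 members, the 5 above, Atg13 and Sqstm1, where 38.3% of all genes tested were below it.

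For 29 of the 40 members the 95% interval of the fold change lay within 2-fold in either direction, compared with 52.3% of all genes tested. The median log2 fold change of the members was -0.15, and that of all genes tested was 0.01. In 3 of the 40 members all 10 tumors lay on one side of all 3 glands (Atg9b, Map1lc3a and Atg4c), a pattern shown by 19.2% of all genes. The counts depended on the scaling of the libraries. Scaled by library totals alone, which moves the median of all genes to 0.33, 4 members were higher (Atg9b, Atg7, Atg12 and Map1lc3a) and 0 lower, with 23.0% of all genes higher and 5.16% lower. Scaled to the epithelial markers, which moves that median to -0.39, only Atg9b was higher and 20 members were lower, with 7.48% of all genes higher and 30.7% lower. The directions given for single genes below are those of the deposited scaling, relative to a median of all genes near 0.

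**Figure D1:**
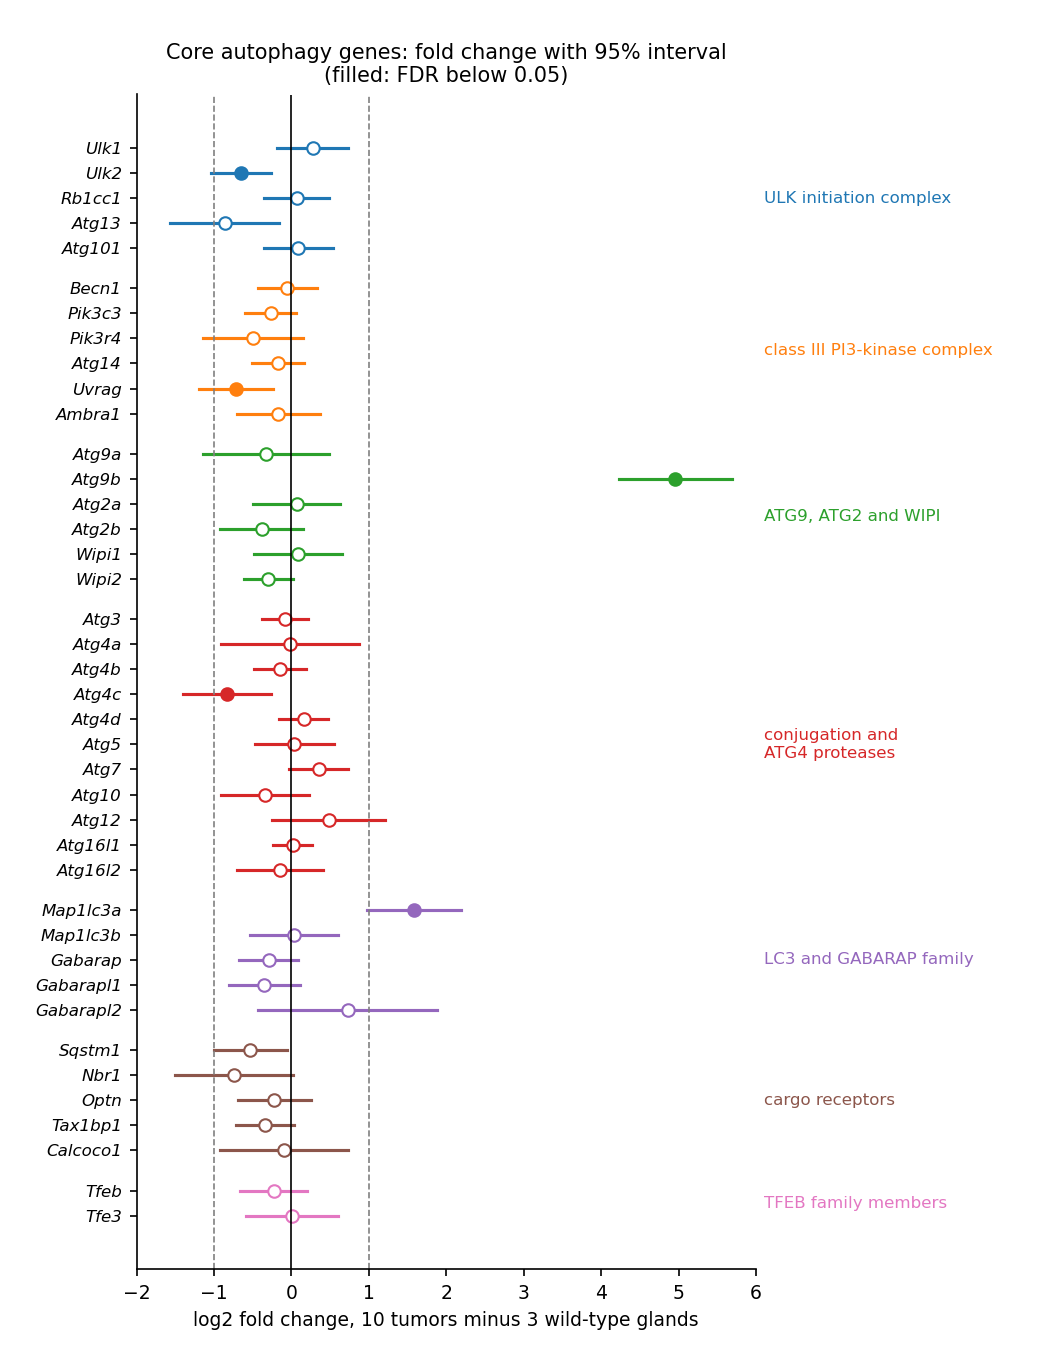
Log2 fold change (tumors minus glands, x axis) of the 40 members by functional group, with 95% intervals as lines and filled circles for FDR below 0.05. Dashed lines mark 2-fold; Atg9b stands apart at 4.96 and Map1lc3a at 1.58, and the intervals of 29 members lie inside the dashed lines.

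The ULK complex receives nutrient signals and starts autophagosome formation. Of its 5 genes, 1 was lower and 0 were higher. Ulk2, a kinase of the complex that is closely related to Ulk1 (chr11:61775598-61855334, GRCm38.p6), had 61.1, 73.4 and 54.4 normalized cpm in glands 1, 2 and 3, and a lowest, median and highest tumor value of 28.6, 38.3 and 57.4. Of the 10 tumors, 9 lay below all glands, and tumor 9 lay between glands 3 and 1. The log2 fold change was -0.65 ± 0.18 (SE, adjusted p = 0.0156, limma). The call was lost without gland 1 (log2 fold change -0.66, adjusted p = 0.0556, limma) and without gland 2 (-0.53, adjusted p = 0.101).

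Ulk1, the other kinase and the member of the complex with the highest mean value, did not pass the test. Its tumor values had a lowest, median and highest of 57.5, 83.3 and 103, and the glands stood at 76.3, 87.6 and 44.6. The glands spanned most of the range of the tumors, with gland 3 below every tumor, and the interval of the log2 fold change ran from -0.18 to 0.73. Atg13, the subunit that ties the kinase to the rest of the complex, had the lowest log2 fold change of all 40 members, at -0.86 ± 0.33 (SE), and missed the threshold (adjusted p = 0.0640, limma). Its values were 37.9, 39.8 and 21.6 in the glands and between 7.28 and 29.8 in the tumors. It passed in 7 of 25 alternatives, among them edgeR (adjusted p = 0.0417) and DESeq2 (0.0295) on the recovered reads. Others were the fit without gland 3 (0.0302, limma) and the one with tumors of a mouse as correlated (0.0379, voom). With each mouse entered once as the mean of its tumors, it did not pass. The scaffold Rb1cc1, also called FIP200, and the Atg13 partner Atg101 had log2 fold changes of 0.07 and 0.09, with intervals inside 2-fold.

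The class III PI3-kinase complex makes the lipid that marks the growing membrane. Of its 6 genes, 1 was lower and 0 were higher. The 6 log2 fold changes lay between -0.72 and -0.05, but with library totals alone 4 of them were above 0. Uvrag, the subunit of the form of the complex that acts on endosomes and late autophagosomes (chr7:98886742-99141167), had values of 46.1, 38.4 and 22.2 in the glands. Its lowest, median and highest tumor values were 12.5, 20.4 and 27.7. Glands 1 and 2 lay above all tumors, gland 3 lay among the tumors, and 6 tumors were below all glands. The log2 fold change was -0.72 ± 0.22 (SE, adjusted p = 0.0273, limma). With each mouse entered once as the mean of its tumors the adjusted p was 0.0510, and without the mouse of tumors 8, 9 and 10 it was 0.0628. Without gland 1 it was 0.206 (log2 fold change -0.50, limma) and without gland 2 0.123 (-0.63).

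Becn1, the scaffold of both forms of the complex, had the highest mean value of this group. Its lowest, median and highest tumor values were 40.7, 67.5 and 74.4, and the glands stood at 71.7, 77.5 and 54.5. The groups overlapped almost fully, and the interval of its log2 fold change ran from -0.44 to 0.33. Atg14, the subunit that directs the complex to autophagosome formation, had an interval from -0.51 to 0.16. The catalytic subunit Pik3c3 (log2 fold change -0.27), the regulatory subunit Pik3r4 (-0.49) and the activator Ambra1 (-0.17) did not pass the test either. Pik3r4 was the least abundant of the 40 genes in the tumors per exon length, and its gland values ran from 8.90 in gland 3 to 21.2 in gland 1.

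The next group carries membrane and lipid to the autophagosome. Atg9a and Atg9b encode the transmembrane proteins of ATG9 vesicles, and the 2 genes moved apart. Atg9b (chr5:24384181-24392143) had values of 3.13, 1.60 and 1.83 in glands 1, 2 and 3, from 73, 31 and 15 reads. In tumors 1 to 10 the values were 73.9, 94.3, 148, 79.1, 133, 81.7, 219, 92.9, 69.6 and 52.0. The lowest tumor, tumor 10, lay far above the highest gland, so that the groups were fully separated. The tumors had a mean of 104 ± 49.6 (SD, n = 10) and the glands one of 2.18 ± 0.823 (SD, n = 3), and the log2 fold change was 4.96 ± 0.34 (SE, adjusted p = 1.42e-07, limma). Averaged by mouse, the 6 values ran from 71.5 to 219. Atg9b stayed past the threshold in all 25 alternative analyses, with log2 fold changes between 4.62 and 5.57 and a highest adjusted p of 0.0100.

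The transcript of Atg9b meets that of the endothelial nitric oxide synthase gene Nos3 tail to tail on the opposite strand. In the GENCODE M21 annotation 294 bases, 7.53% of the exon bases of Atg9b, lie under exons of Nos3, and the strand setting of the read counting is not given in the sources used here. Nos3 itself ran the other way, with values of 19.5, 20.5 and 9.63 in the glands and between 1.68 and 6.92 in the tumors. All 10 tumors were below all glands for Nos3, which the filter on low values had left out. No stretch of 75 bases, the length of a read, was shared between the longest transcript of Atg9b and a transcript of another gene. The unknown strand setting also bears on Becn1, Atg4d and Sqstm1. Of their exon bases, 29.6%, 23.2% and 20.5% lie under opposite-strand exons of Cntd1, Kri1 and Mrnip.

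Atg9a (chr1:75180861-75192010), the form found in most tissues, had a lowest, median and highest tumor value of 12.7, 37.3 and 57.0, and gland values of 51.3, 57.4 and 25.4. The groups overlapped, and the log2 fold change was -0.33 ± 0.38 (SE, adjusted p = 0.566, limma). Its values are uncertain, since 40.7% of the 75-base stretches of its longest transcript also occur in Gm29253, an annotated transcript that overlaps it on the same strand. Whether the read counting listed Gm29253 as a separate gene is not given in the sources used here. Within each library, with 1 added to both values, Atg9b had a log2 ratio to Atg9a of -3.66, -4.49 and -3.22 in the glands and between 0.51 and 2.36 in the tumors. The added 1 pulls the gland ratios toward 0, since Atg9b is low there.

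The promoters of this pair also differ in their content of CpG, the dinucleotide at which mammalian DNA is methylated. The RefSeq table (GRCm38.p6) gives 1 start for each gene, and the 250 bases before the start are printed for both because the pair diverged most of all families, with each CpG in capitals. Which start the tumors use was not measured.
Atg9b, chr5:24392144-24392393, minus strand: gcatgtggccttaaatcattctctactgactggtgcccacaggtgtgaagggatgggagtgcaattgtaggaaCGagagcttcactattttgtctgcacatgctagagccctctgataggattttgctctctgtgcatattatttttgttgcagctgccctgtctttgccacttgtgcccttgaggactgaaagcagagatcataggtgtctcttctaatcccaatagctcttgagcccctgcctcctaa
Atg9a, chr1:75192011-75192260, minus strand: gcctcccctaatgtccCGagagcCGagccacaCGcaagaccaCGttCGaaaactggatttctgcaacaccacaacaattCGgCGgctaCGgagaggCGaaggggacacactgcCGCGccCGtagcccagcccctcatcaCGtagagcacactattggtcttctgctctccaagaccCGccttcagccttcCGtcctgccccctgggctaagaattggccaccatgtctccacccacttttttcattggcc
The Atg9b stretch holds 1 CpG and the Atg9a stretch holds 15. Over the full window of 300 bases, which runs to 50 bases after the start, Atg9b had 2 CpG, the fewest among the 41 windows of the 34 members that the table covers. The median of the members' windows was 19 CpG and that of all 32851 windows was 7, and 14.1% of all windows held fewer CpG than that of Atg9b. No methylation was measured in these samples.

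The lipid transfer proteins Atg2a and Atg2b had log2 fold changes of 0.07 and -0.38, and the lipid-binding proteins Wipi1 and Wipi2 of 0.09 and -0.30. None of the 4 passed the test. Wipi2, which recruits the ATG16L1 complex, was the most abundant member of the group that did not pass. It had a lowest, median and highest tumor value of 59.9, 85.9 and 95.5 and gland values of 105, 113 and 91.4. In 9 tumors the value was below all glands, and the interval ran from -0.62 to 0.02. DESeq2 on the recovered reads called it lower (adjusted p = 0.0360).

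**Figure D2:**
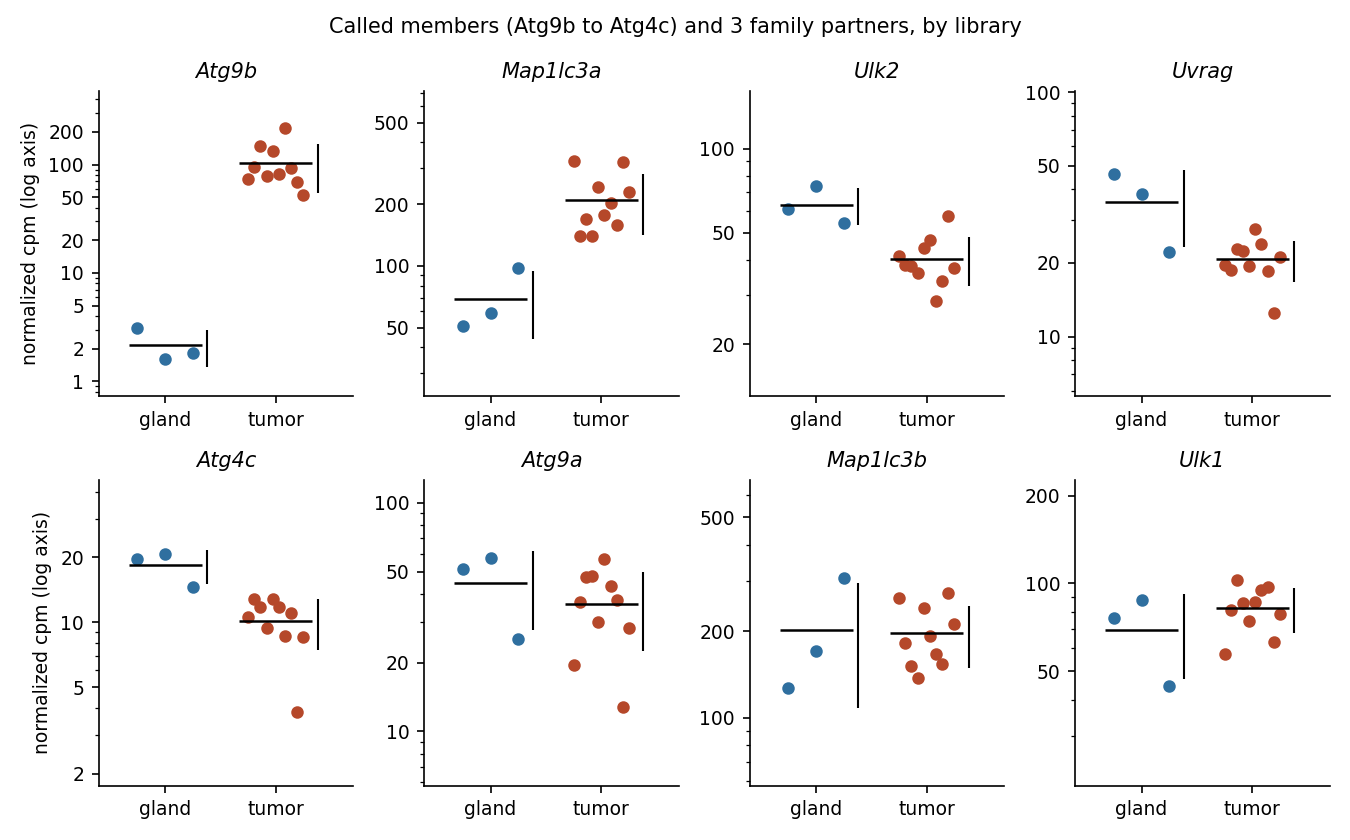
Normalized cpm (log axis, scaled separately in each panel) of the 5 members past the test and of the partners Atg9a, Map1lc3b and Ulk1, in 3 glands and 10 tumors, with the mean as a horizontal bar and ± 1 SD as a vertical line. Tumors and glands are fully separated for Atg9b, Map1lc3a and Atg4c and overlap for the 3 partners.

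A pair of linked cascades attaches ubiquitin-like proteins during autophagy. Atg7 activates and Atg10 and Atg3 transfer them, Atg5, Atg12 and Atg16l1 form the complex that conjugates LC3 to lipid, and the ATG4 proteases prepare LC3 and release it again. Of these 11 genes, 1 was lower and 0 were higher. The median log2 fold change of the group was -0.02, and 9 of the 11 intervals lay within 2-fold. Atg4c, a protease of the ATG4 family (chr4:99189159-99297258), had values of 19.6, 20.7 and 14.6 in the glands and a lowest, median and highest tumor value of 3.87, 10.8 and 12.9. All 10 tumors lay below all glands, with tumor 9 lowest by a wide margin at 17 reads. The log2 fold change was -0.83 ± 0.27 (SE, adjusted p = 0.0306, limma). It was -0.78 without gland 1 (adjusted p = 0.125) and -0.74 without gland 2 (adjusted p = 0.131).

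The other proteases did not pass the test. Atg4b, the most active form on LC3, had a log2 fold change of -0.15, and Atg4d one of 0.16. Atg4a had one of -0.02, but 52.0% of its 75-base stretches also occur in its copy Atg4a-ps, so that its value is uncertain. Atg7 had the highest mean value of the group. Its lowest, median and highest tumor values were 71.4, 93.8 and 102, and the glands stood at 73.3, 88.9 and 49.9. Of the 10 tumors, 6 lay above all glands, the log2 fold change was 0.35 ± 0.18 (SE), and the adjusted p was 0.164.

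Atg16l1, which places the conjugation complex on the membrane, had the narrowest interval of all members. Its tumor values lay between 32.8 and 42.3 and its gland values were 36.7, 35.2 and 41.2, with an interval of the log2 fold change from -0.23 to 0.27. Atg3 and Atg5 had log2 fold changes of -0.08 and 0.04, Atg10 of -0.34 and Atg16l2 of -0.15. Atg12 had gland values of 33.9, 35.7 and 92.6 and tumor values between 43.3 and 122. It passed the test only where gland 3 was left out (log2 fold change 0.94, adjusted p = 0.0426), where gland 3 and tumor 9 were left out together (0.85, adjusted p = 0.0351) or with library totals alone (0.80, adjusted p = 0.0443).

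LC3 and GABARAP proteins are the ubiquitin-like proteins that end up on the autophagosome membrane. Of the 5 genes, Map1lc3a was higher and 0 were lower. Map1lc3a (chr2:155276364-155278073) had values of 50.7, 59.1 and 97.8 in glands 1, 2 and 3. In tumors 1 to 10 it had values of 326, 140, 169, 140, 242, 177, 202, 157, 323 and 229. Every tumor lay above every gland, and the tumors spread over 2.33-fold. The mean was 211 ± 68.9 (SD, n = 10) against 69.2 ± 25.1 (SD, n = 3), and the log2 fold change was 1.58 ± 0.28 (SE, adjusted p = 0.000745, limma). Averaged by mouse, the 6 values lay between 140 and 326. Scaled to the epithelial markers the log2 fold change was 1.17 with an adjusted p of 0.0514.

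Map1lc3b, the form most often measured as a marker of autophagosomes, had a lowest, median and highest tumor value of 137, 188 and 272. The glands stood at 127, 171 and 308, on both sides of all tumors, and the interval ran from -0.54 to 0.60. Within a library, the log2 ratio of Map1lc3a to Map1lc3b, with 1 added to both values, was -1.31, -1.51 and -1.65 in the glands and between -0.38 and 0.31 in the tumors. Both genes had their highest gland value in gland 3, and all 10 tumors lay above all glands in the ratio.

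Gabarap and Gabarapl1 had log2 fold changes of -0.29 and -0.35, with 7 of 10 tumors below all glands in each case and adjusted p of 0.256 and 0.252. Gabarapl2 had the widest interval of the 40 members, from -0.43 to 1.89. Its gland values were 19.7, 24.8 and 138, and its tumor values ran from 36.0 to 160 in tumor 9. Without gland 3 its log2 fold change was 1.59 (adjusted p = 0.0212, limma), and 13.3% of its 75-base stretches also occur in other genes. No other gene shared more of them than the processed pseudogene Gm3724.

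Receptors link cargo to LC3 and GABARAP. Of the 5 genes, 0 passed the test in either direction. The 5 log2 fold changes lay between -0.74 and -0.10, but with library totals alone 2 of them were above 0. With limma, 1 of them (Sqstm1) was lower at an unadjusted p below 0.05, and edgeR and DESeq2 also called 0. Tax1bp1, a receptor for ubiquitinated cargo, had the highest mean value. Its lowest, median and highest tumor values were 154, 206 and 266, and the glands stood at 242, 319 and 241. In 8 tumors the value was below all glands, and the adjusted p was 0.169.

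Sqstm1, which encodes p62, a receptor that is itself degraded by autophagy, had gland values of 223, 236 and 154 and tumor values between 101 and 223. Its log2 fold change was -0.53 ± 0.22 (SE, adjusted p = 0.0881, limma), and it passed without gland 3 (adjusted p = 0.0353) and without tumor 6 (0.0269). Nbr1, a receptor related to p62, had gland values of 200, 242 and 91.6 and a log2 fold change of -0.74 (adjusted p = 0.141). Without gland 3 that became -1.16 (adjusted p = 0.0277). Optn and Calcoco1 had log2 fold changes of -0.22 and -0.10, and the values of Calcoco1 ranged from 31.1 to 106 among the glands alone.

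Tfeb and Tfe3 are transcription factors that move to the nucleus on starvation and activate lysosomal and autophagy genes. Neither passed the test. Tfe3, the more abundant of the pair, had a lowest, median and highest tumor value of 28.9, 44.6 and 66.9, and glands at 56.0, 56.5 and 25.5. Tfeb had tumor values between 12.7 and 24.4 and glands at 28.3, 21.8 and 16.1. For both the interval of the log2 fold change lay within 2-fold, from -0.59 to 0.61 for Tfe3 and from -0.66 to 0.20 for Tfeb.

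The letters CACGTG, the core of the site that these factors bind, are read the same on both strands and occur in the promoter windows of 4 of the 34 members covered, with 9.76% of the members' windows holding them against 7.15% of all windows of the same length. The members are Atg14, Atg3, Atg5 and Atg7, with 2 copies in Atg3. Their surroundings are printed, 30 bases each, with CACGTG in capitals, because Tfeb and Tfe3 are themselves among the members. The window of Atg7 belongs to a start inside the gene, downstream of the gene's first base, whereas those of Atg14 and Atg3 are at the first base and that of Atg5 is 17 bases from it. None of these 4 genes passed the test. A match of letters does not show binding.
Atg14, chr14:47568418-47568447, minus strand: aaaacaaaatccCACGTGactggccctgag
Atg3, chr16:45158723-45158752, plus strand: gcctccttttgtCACGTGtcctgggagagt
Atg3, chr16:45158746-45158775, plus strand: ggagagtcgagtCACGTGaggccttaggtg
Atg5, chr10:44268313-44268342, plus strand: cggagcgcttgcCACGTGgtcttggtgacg
Atg7, chr6:114670952-114670981, plus strand: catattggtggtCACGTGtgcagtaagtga
The longer form TCACGTG, on either strand, was found in Atg14, Atg3 and Atg7, and in 3.77% of all windows. The log2 fold changes of the 4 genes lay between -0.17 and 0.35, and their adjusted p between 0.164 and 0.927.

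Paralogs within a family were also set against each other inside each library. The log2 ratio, with 1 added to both values, was formed for 8 pairs. The pairs were picked after the values had been seen and hold called members, so the ratios are a description with no test. The values are not divided by length, so that only the change of a ratio between groups can be read. The mean log2 ratio of Atg9b over Atg9a was 5.29 higher in the tumors than in the glands, that of Map1lc3a over Map1lc3b 1.55 higher and that of Atg2a over Atg2b 0.45 higher. For each of these 3 pairs, 10 of 10 tumors lay above all glands.

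For Atg2a over Atg2b, the log2 ratio was 0.12, 0.09 and -0.24 in the glands and between 0.23 and 0.61 in the tumors, although neither gene passed the test alone. Ulk1 over Ulk2 had log2 ratios of 0.32, 0.25 and -0.28 in the glands and a lowest, median and highest of 0.13, 1.05 and 1.69 in the tumors. Its mean was 0.92 higher in the tumors, with 9 of 10 tumors above all glands. The ratios Wipi1 over Wipi2, Atg16l1 over Atg16l2, Gabarapl1 over Gabarap and Tfe3 over Tfeb had differences between tumors and glands of -0.06 to 0.39.

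**Figure D3:**
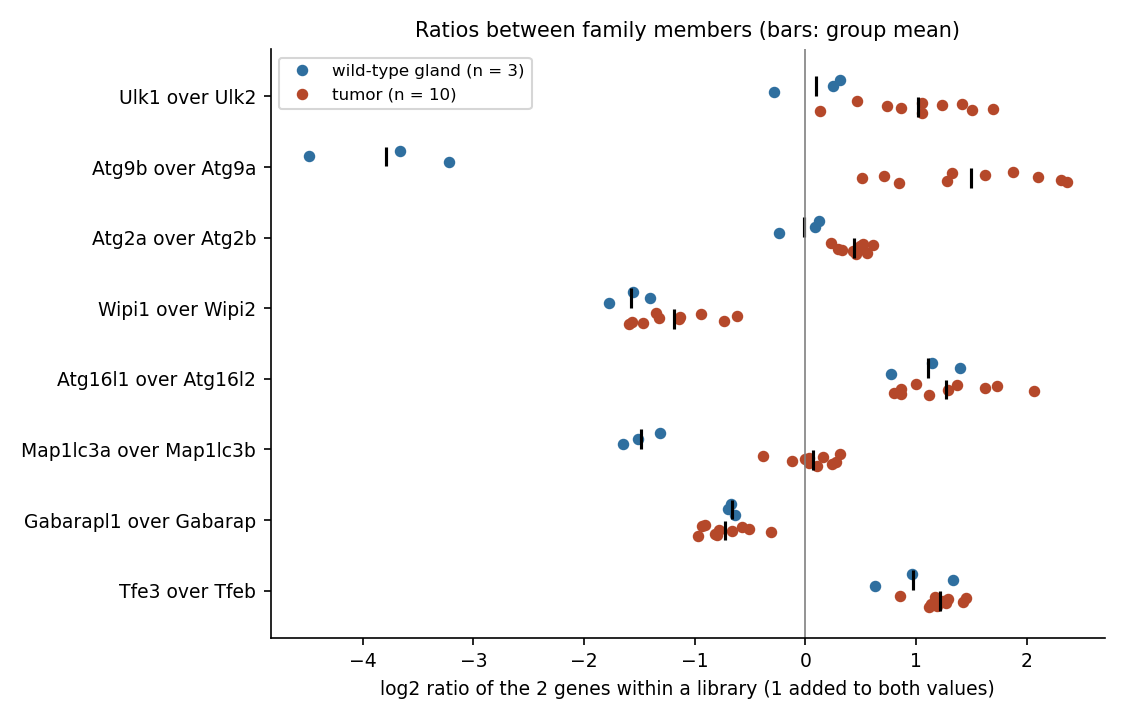
Log2 ratio of 2 family members within each library, with 1 added to both values (x axis), for 8 pairs, with glands in blue, tumors in red and a bar at each group mean. The tumors lie above all glands for Atg9b over Atg9a, Atg2a over Atg2b and Map1lc3a over Map1lc3b, and 9 of 10 do for Ulk1 over Ulk2.

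The members were also ranked by their mean level divided by the length of their exons. On this scale, normalized cpm per kb of exon, the highest mean levels in the glands were those of Tax1bp1 (81.4), Sqstm1 (72.4), Map1lc3a (62.2) and Gabarap (61.5). In the tumors they were those of Map1lc3a (189), Tax1bp1 (64.3), Gabarap (50.7) and Sqstm1 (50.5). Atg9b went from the lowest level of the 40 in the glands, at 0.560, to rank 8 in the tumors, at 26.8, with Atg9a, whose value is uncertain, at 8.25. The lowest levels in the tumors were those of Pik3r4 (2.19) and Atg16l2 (2.44). Neighbors such as Gabarap and Sqstm1 in the tumors differed by less than their spread between libraries.

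**Figure D4:**
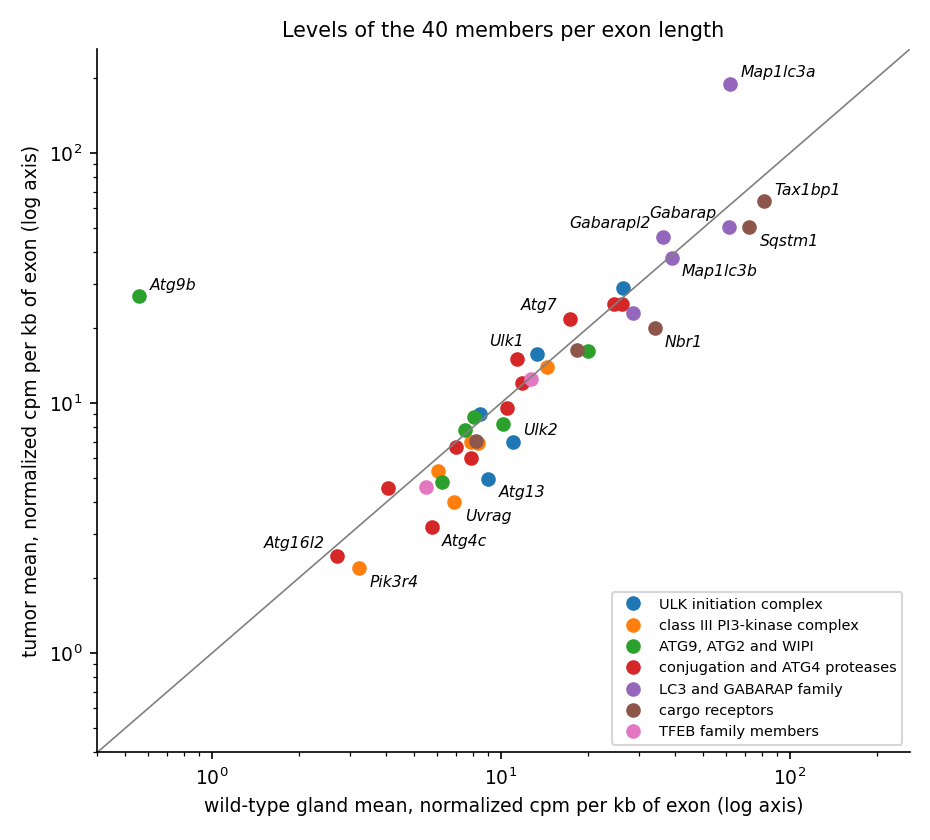
Mean level of each member in 3 glands (x axis) and 10 tumors (y axis), in normalized cpm per kb of exon on log axes, colored by functional group, with a line at equal levels. Most genes lie near the line, Atg9b (0.560 and 26.8) and Map1lc3a (62.2 and 189) above it.

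The libraries themselves differed, over all genes tested as well as in the members. Gland 3 was the lowest or highest gland for 36 of the 40 members (87.5% of all genes tested), and 21 members were more than 1.5-fold from the mean of glands 1 and 2 (54.1% of all genes), with 8 higher and 13 lower. Among the tumors, tumor 9 was the lowest for 19 members and the highest for 10, where it was so for 29.1% and 20.1% of all genes, and tumor 6 was the highest for 19, against 21.3% of all genes. Gland 3 and tumor 9 departed from their groups on the same side for 34 of the 40 members and 76.6% of all genes. For all 16 members that were more than 1.5-fold off in both the side was the same, as it was for 96.3% of the 3759 such genes of all tested. Gabarapl2, Atg4a and Atg12 were high in both, and Calcoco1, Nbr1, Atg9a and Atg13 were low in both.

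The 8 members that were higher in gland 3 had a median GC content of 45.0% in their longest transcript, against 54.7% for the 13 lower ones. The sets also differed in the median length of these transcripts, at 2277 bases for the 8 and 4756 for the 13. Neither feature was set against all genes tested. Map1lc3a, at 63.1% GC, and Map1lc3b, at 55.2%, were the 2 of the 8 higher members whose GC content exceeded that of the lower ones' median. Gland 3 and tumor 9 had the highest share of Rn45s reads within their groups, as given above. The part of GC content, transcript length or Rn45s in these values was not tested. With both left out together, a choice made after the data were seen, 4 members were higher (Atg9b, Atg12, Map1lc3a and Gabarapl2) and 6 were lower (Ulk2, Atg13, Uvrag, Atg4c, Sqstm1 and Nbr1), where 18.7% and 17.3% of all genes were. Without gland 3 alone the counts were 4 and 7, with Pik3r4 added to the lower ones, where 17.9% and 16.2% of all genes were.

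**Figure D5:**
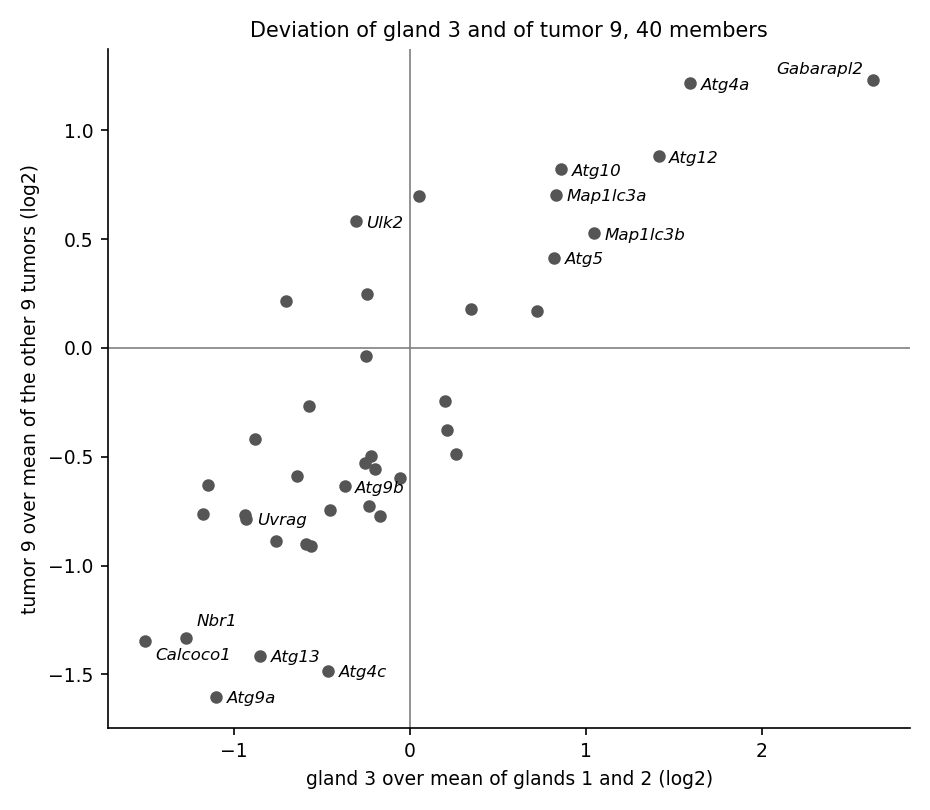
For each of the 40 members, log2 of gland 3 over the mean of glands 1 and 2 (x axis) against log2 of tumor 9 over the mean of the other 9 tumors (y axis). For 34 members both coordinates have the same sign, with Gabarapl2 farthest to the right.

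Other genes of the pathway were taken from 5 lists. Of 20 genes that pass nutrient and energy signals to autophagy, 18 passed the filter, of which 1 was higher and 2 were lower. Ddit4, an inhibitor of mTORC1, was higher in 10 of 10 tumors, at 63.4 to 121 against 43.8, 39.7 and 27.9 in the glands (log2 fold change 1.28, adjusted p = 0.000209, limma). Prkaa2, a catalytic subunit of the energy sensor AMPK, was lower in 10 of 10 tumors, at 6.74 to 18.5 against 49.8, 60.6 and 40.2 (-2.07, adjusted p = 5.46e-05). The third was Sesn3, which was lower by less than 2-fold. The 2 genes that the filter left out were both lower in the fit without it. Deptor, an inhibitor of mTOR, was below all glands in 10 of 10 tumors (log2 fold change -1.51, adjusted p = 0.00064, limma), and Rragd, a GTPase that acts on mTORC1, in 9 of 10 (-1.08, adjusted p = 0.0396).

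Of 18 other genes that act in autophagosome formation, 3 were higher and 3 were lower. Vmp1, a scramblase of the endoplasmic reticulum, had values between 132 and 691 in the tumors against 58.7, 60.3 and 132.3 in the glands, with 9 of 10 tumors above all glands (log2 fold change 2.00, adjusted p = 0.00245, limma). Tecpr1, which acts where autophagosomes meet lysosomes, was lower in 10 of 10 tumors (-1.50, adjusted p = 0.00106). The others changed by less than 2-fold, with log2 fold changes of 0.79 for Tmem41b and 0.69 for Wdfy3, and of -0.91 for Sh3glb1 and -0.85 for Epg5. Among 15 genes of mitophagy and ER-phagy tested, 0 were higher and 3 were lower (Pink1, Retreg1 and Ccpg1, named because they are few). Of 14 genes of autophagosome fusion with the lysosome, 0 were higher and 3 were lower (Snap29, Rab7 and Vps33a). Of 7 transcription factors tested that act on autophagy genes, 1 was higher (Zkscan3, a repressor of such genes) and 0 were lower. Each of the 7 in these last 3 lists changed by less than 2-fold. The shares stand beside the 14.8% and 13% of all genes given above.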

How the data were processed

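Total RNA from 10 tumors and 3 glands was sequenced as paired-end reads. Per the labels, reads were assigned to genes of mm10 with featureCounts, and the authors' methods name Rsubread for mapping and edgeR for normalization. Whether counting used strand is not given in the sources used here. The labels name 2 sequencing sites (UNMC and Novogene) without tying libraries to them, so that no batch could be assigned. The deposited signal values are normalized: divided by a step found for each library, 100% of them came out whole (tolerance 0.1 reads), which gave back the reads per gene. Libraries held 6176269 to 23889042 reads assigned to the listed genes. The floor for a gene without reads, 3 reads (95% level), equaled 0.128 to 0.683 normalized cpm. This covers counting error only. No 2 libraries were alike within sampling noise (smallest chi-square per gene 20.4).

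Because the values were not raw counts, the test planned for normalized values was used: limma 3.58.1 (R 4.3.3) with a trend of the variance on expression, on log2(value + 1), with all 13 libraries and condition as the only term. A fold change on this scale understates the change of low genes. Genes at 5 or less in most libraries were left out (3418), and 11795 were tested with Benjamini-Hochberg adjustment over all of them. edgeR 4.0.16 (quasi-likelihood) on the recovered reads, an alternative, called 1545 genes higher and 1778 lower at FDR below 0.05, and DESeq2 1.42.0 was a further one. Some tumors share a mouse (consensus correlation of their log2 values 0.0477), and the p-values take the 10 tumors as separate samples.

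The members, gene lists and tests were chosen with earlier results of these data known. Each member is accounted for, and for members at FDR below 0.05 and the most abundant further member of each group the value of each gland is given, with the tumors one by one or as the lowest, median and highest. Pathway genes are named where they passed FDR below 0.05 and 2-fold, up to 3 in each direction. The few other called genes of these lists, all under 2-fold, and Deptor and Rragd, which the filter left out, were named after their values were seen. Ratios of paralogs are of values with 1 added. Gene coordinates and promoters come from RefSeq (GRCm38.p6), exon lengths, overlaps and transcripts from GENCODE M21. Per-kb levels use the union of a gene's exons. Columns of other samples numbered 0.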

Additional observations from a re-analysis of the deposited data

Results flagged for a closer look

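In 4 of the 40 members a single tumor lay far from the other 9, by the gap to its nearest neighbor relative to the range (Dixon's criterion), and in each it was tumor 9, the library with 27.4% Rn45s reads, as the lowest value. Becn1 was at 40.7 in tumor 9, with the next tumor at 57.9. Uvrag was at 12.5, with the next at 18.6. Wipi2 was at 59.9, with the next at 79.1. Atg4c was at 3.87, with the next at 8.60. Chance flags about 1 in 20 groups, and the share of all genes flagged in this way was not counted. Tumor 9 was the lowest tumor for 19 of the 40 members and for 29.1% of all genes tested. What sets tumor 9 apart in these genes was not tested. Without tumor 9, Uvrag and Atg4c were still past the threshold and Becn1 and Wipi2 were still short of it.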

How the results depend on the processing

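Over 25 alternatives and 40 genes, 948 of 1000 values kept their side of the threshold and, where called, their direction. Most members were not called in the reported analysis and count as kept by staying so. Of the called members, Atg9b kept its call in 25 of the 25 alternatives and Map1lc3a in 23. Ulk2 and Atg4c kept theirs in 21 each and Uvrag in 19. In 16 a call was lost, in 36 one was gained, and 0 calls reversed. The sign changed in 74 values of 24 genes, none of them past the test and none with a log2 fold change beyond 0.35 in the reported analysis. The reported counts were 2 higher and 3 lower, 2 and 0 of them over 2-fold, with a median log2 fold change of -0.15. Library totals alone gave 4 higher and 0 lower (median 0.17). Scaling to epithelial markers gave 1 higher and 20 lower (1 and 5 over 2-fold, median -0.55). DESeq2 gave 5 lower, where 16.4% of all genes were lower. Leaving out tumor 9 and gland 3 together gave 4 higher and 6 lower, 2 of the latter over 2-fold. With 1 library left out at a time, 2 to 4 were higher and 0 to 7 lower, 2 to 3 higher and 0 to 3 lower over 2-fold, and the median lay between -0.22 and -0.11. The extremes of the lower counts came from the glands. Without gland 1 or without gland 2, 0 were lower, where 7.8% and 9.45% of all genes were. Without gland 3, 7 were lower (16.2% of all genes), and without tumor 6, 5 were (14.4% of all genes).

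With the replicate number as a replicate block, 1 member was higher (Atg9b, 1 over 2-fold) and 0 were lower, and Map1lc3a had a log2 fold change of 1.56 with an adjusted p of 0.183. The labels give tumors and glands the same numbers without a shared animal, and deviations of same-numbered libraries correlated at -0.58, 0.04 and -0.66, so that the samples share only a number. Over all genes tested, 362 were higher and 182 lower under this block. Replicate numbers 4 to 10 belong to tumors alone. The fold changes under this block therefore rest on tumors 1, 2 and 3 and glands 1, 2 and 3. How far this accounts for the lost calls was not tested.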
